A study of Canis lupus familiaris with 5 samples.

Results

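Clone 1 was 1 of the 3 induced pluripotent stem cell (iPSC) libraries, and 1 of the 5 RNA libraries, of dog K9. It was picked by its title, which carries the same line label as the library of induced neural stem cell-like cells (iNSLCs), and it was set against iPSC clones 2 and 3. The question of the comparison was which genes differed in clone 1 from the other clones, and whether these genes lay toward the level of the iNSLCs or of the fibroblasts. The labels and methods do not say what the shared number stands for, a common colony or only a position in a series.

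All 5 libraries came from cells of 1 adult dog. The fibroblast library held ear skin fibroblasts at passage 1. The iNSLC library was at passage 2, from the primary colonies that formed after fibroblasts took up episomal plasmids carrying reprogramming factors (the EP-B combination) and were grown in the medium the study calls NSM, which it had used before to bring pluripotent cells to a naive state. Clone 1 was at passage 9 and clones 2 and 3 at passage 8, each a line that came from such colonies after transfer to an embryonic stem cell medium. The iNSLCs and all clones thus came from cells that had received the plasmids, which by the study's genomic PCR were later lost from the clones, and passage, medium and stage went together. Mouse feeder cells were used during induction, and any reads from them or from plasmids were left among the dog counts. Each clone was a single line sequenced as 1 library, so clone 1 has no replicate of its own. By the study's karyotyping, part of the cells of every clone did not have the normal chromosome number.

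Reprogramming replaces the expression program of a somatic cell with that of a pluripotent cell, which can renew itself and give rise to all germ layers. Clones picked from one reprogramming experiment are usually alike at most genes, but a clone can keep part of the expression pattern of the cell it came from, and clones also drift apart in culture. Intermediate cells that resemble neural progenitors can form on the way. A comparison of sister clones with both earlier stages places the differences between clones along this path.

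The counts are reads per gene model, given for 32220 Ensembl dog gene IDs (ENSCAFG numbers) on the CanFam3.1 assembly, and the files do not pair the IDs with symbols. No ID matched the RefSeq table of gene names at hand (0 of 32220), so the markers of pluripotency, neural cells and fibroblasts could not be looked up, and the labelled cell types were not checked against them. Genes are given here by 2 IDs in each direction and otherwise by their CanFam3.1 position. Levels are CPM, read counts relative to the library total, after TMM scaling, which corrects for differences in library composition. They are not per gene length, so they compare libraries and not genes.

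Clone 1 had 29564180 counts over 20144 genes, clone 2 had 20021139 over 19416, and clone 3 had 34317091 over 20853. The iNSLC library had 11699186 counts and the fibroblast library 33280017. A count of 3, used as the floor, was worth 0.0874 to 0.256 CPM of the raw library totals. The floor was applied to the TMM-scaled levels, where its worth in CPM differs somewhat from these values. The models of the mitochondrial genome took 6.05% of the counts in clone 1 (95% Clopper-Pearson interval 6.05 to 6.06), 9.99% in clone 2 and 6.79% in clone 3, against 2.48% in the iNSLCs and 4.33% in the fibroblasts. These intervals cover counting error only, with each count taken as independent. They are too narrow if mates of a pair were counted separately.

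No gene was called between clone 1 and the other clones with the usual filter on low counts. The edgeR quasi-likelihood test found 0 of 17479 genes (0%) at an adjusted p under 0.05, and the smallest adjusted p was 1. At an unadjusted p under 0.05 it had 247 genes, or 1.41%, with 122 higher and 125 lower in clone 1. DESeq2 and limma-voom also called 0 genes, with smallest adjusted p of 0.838 and 0.9997, and differed in the balance at an unadjusted p under 0.05, with 70 genes higher and 191 lower in DESeq2 and 174 higher and 65 lower in limma-voom. Without the filter edgeR called 62 of 23963 genes (0.259%), 12 higher and 50 lower in clone 1. All 62 were also among the 17479, 59 had at least 1 CPM in a clone, and 45 lay outside both other clones. The call thus depended on the filter, and the fit without it had infinite prior degrees of freedom. The spread in the filtered edgeR fit came from clones 2 and 3 alone, with 1 residual degree of freedom and a biological coefficient of variation of 46.1%, and clone 1 was assumed to vary like them. The further counts of genes therefore rest on size, and they describe these libraries.

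By size, clone 1 had the fewest genes outside its sister clones. Among genes with at least 10 CPM on the higher side, 3 lay at least 4-fold above both other clones in clone 1 (0.0172% of those tested) and 0 lay 4-fold below both (0%). The same count was 170 above and 68 below for clone 2, and 1 above and 19 below for clone 3. At 2-fold, clone 1 had 85 genes above (0.486%) and 10 below (0.0572%), clone 2 had 385 and 305, and clone 3 had 21 and 429. Taken pair by pair, 318 genes differed at least 4-fold between clones 1 and 2, 62 between clones 1 and 3, and 363 between clones 2 and 3. Of the 62 genes between clones 1 and 3, 61 were higher in clone 1. No gene with at least 1 CPM in clone 1 was under 3 counts in both other clones, and there were 39 such genes in clone 2 and 0 in clone 3.

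**Figure D1:**
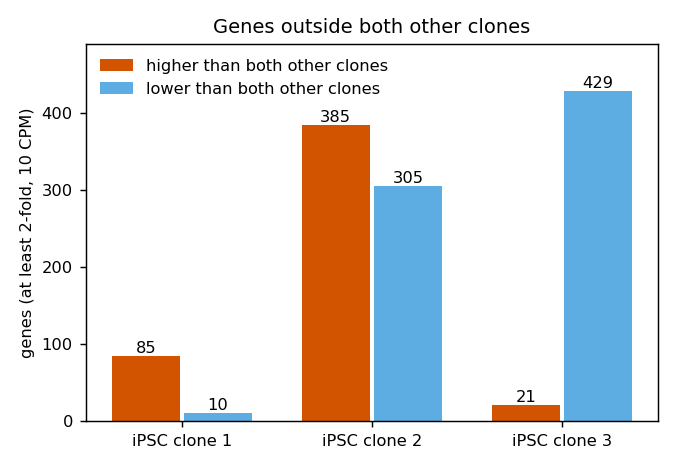
Bars give the number of tested genes (vertical axis) with at least 10 CPM that lay at least 2-fold above (orange) or below (light blue) both other clones, for each iPSC clone. Clone 1 has 85 genes above and 10 below, against 385 and 305 in clone 2 and 21 and 429 in clone 3.

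The 3 genes at least 4-fold above both clones were all higher in iNSLCs than in fibroblasts. ENSCAFG00000005977, on chromosome 15 from 27439192 to 27493140, had 15.5 CPM in clone 1, 0.445 in clone 2, 2.65 in clone 3, 6.89 in iNSLCs and 0 in fibroblasts. Its level in clone 1 thus lay above every other library, with a fitted log2 difference from the other clones of 3.30 ± 1.02 (SE, edgeR, unadjusted p = 0.0115, adjusted p = 1). ENSCAFG00000015943, on chromosome 30 from 20946976 to 21063583, had 132 CPM in clone 1 against 30.8 and 26.0 in clones 2 and 3, with 92.0 in iNSLCs and 1.33 in fibroblasts. The log2 difference was 2.22 ± 0.470 (SE, edgeR, unadjusted p = 0.00145, adjusted p = 1), and clones 2 and 3 lay between the fibroblasts and the iNSLCs. The gene model on chromosome X from 74184772 to 74317391 had 17.7 CPM in clone 1, 3.38 in clone 2, 4.32 in clone 3, 22.3 in iNSLCs and 0.390 in fibroblasts. This was the only one of the 3 whose clone 1 level was below that of the iNSLCs.

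Other genes at least 2-fold above both clones had the same order of the stages. A model on chromosome 2 (45848249 to 46125553) had 23.8 CPM in clone 1, 6.45 and 6.46 in clones 2 and 3, 30.2 in iNSLCs and 1.09 in fibroblasts. A model on chromosome 34 (4783838 to 5082084) had 62.2 CPM in clone 1 against 15.1 and 16.7, with 30.6 in iNSLCs and 2.58 in fibroblasts. A long model on chromosome 7 (66503999 to 66625062) had 328 CPM in clone 1, 57.0 and 95.5 in clones 2 and 3, 133 in iNSLCs and 0.586 in fibroblasts. In the last pair clone 1 lay above the iNSLCs, and the other clones lay below them.

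A further set was higher in fibroblasts, or high in both earlier stages. The model on chromosome 27 from 20429370 to 20509878 had 46.9 CPM in clone 1, 15.1 and 16.4 in clones 2 and 3, 24.4 in iNSLCs and 114 in fibroblasts. The one on chromosome 3 from 23417821 to 23808380 had 13.2 CPM in clone 1 and 4.36 and 1.76 in the other clones, against 144 in iNSLCs and 691 in fibroblasts. The one on chromosome 2 from 3415993 to 3551319 had 81.1 CPM in clone 1, 8.32 and 20.6 in clones 2 and 3, 205 in iNSLCs and 129 in fibroblasts. For the last 2 genes clone 1 was nearer than the other clones to both stages, and it stayed below each of them. A model on chromosome 36 from 30487822 to 30526563 was the extreme case of an earlier-stage gene, with 32265 CPM in iNSLCs and 32982 in fibroblasts. It had 24.2 CPM in clone 1 and 9.08 and 9.02 in clones 2 and 3, so the level in all clones was far below both stages.

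Other genes were highest in clone 1 itself and near the floor in fibroblasts. A model on chromosome 36 from 11480769 to 11561455 had 21.1 CPM in clone 1, 3.12 and 5.40 in clones 2 and 3, 0.523 in iNSLCs and 0 in fibroblasts. A short model on chromosome X from 82284457 to 82292491 had 85.0 CPM in clone 1, 25.2 and 18.4 in the other clones, 4.62 in iNSLCs and 0 in fibroblasts. Both genes had a higher level in all 3 clones than at the earlier stages, and clone 1 was further from the iNSLCs than its sister clones. Of the 85 genes, 14 were under 3 counts in the fibroblasts (16.5%, against 2.38% of the 9708 tested genes with at least 10 CPM in a clone).

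The 10 genes at least 2-fold below both clones were mixed. ENSCAFG00000031292, on chromosome 28 from 33806215 to 33811331, had 22.3 CPM in clone 1, 67.4 in clone 2, 71.3 in clone 3, 3.14 in iNSLCs and 0 in fibroblasts. The fitted log2 difference was -1.64 ± 0.569 (SE, edgeR, unadjusted p = 0.0203, adjusted p = 1), and clone 1 lay between the iNSLCs and the other clones. ENSCAFG00000015705, on chromosome 3 from 70232061 to 70236572, had 7.67 CPM in clone 1, 24.2 and 26.0 in clones 2 and 3, 6.19 in iNSLCs and 30.4 in fibroblasts. Here the log2 difference was -1.71 ± 0.620 (SE, edgeR, unadjusted p = 0.0244, adjusted p = 1), with clone 1 near the iNSLCs and the other clones near the fibroblasts. It was the only one of the 10 nearer to the iNSLCs alone. Another 4 were nearer to both stages in clone 1, and 5 were further from both.

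A group of 3 neighbouring models on chromosome 7, from 80950042 to 80974511, was among those 10. Their summed level was 2512 CPM in clone 1, 5781 in clone 2, 6249 in clone 3, 40596 in iNSLCs and 19460 in fibroblasts. These were abundant at both earlier stages, and clone 1 had the lowest level of all libraries. The longest of these models spans the positions of the others, so reads may have been split between them and the 3 are not independent. Among the higher genes, 3 neighbouring models on chromosome 36, from 29457093 to 30526563, summed to 202 CPM in clone 1, 58.4 in clone 2 and 91.0 in clone 3, against 32324 in iNSLCs and 33191 in fibroblasts. Nearly all of the sum at the earlier stages came from the model named before. Another of the 3, from 30108886 to 30250892, made up most of the clone 1 sum, with 165 CPM in clone 1, 51.3 in iNSLCs and 151 in fibroblasts. The 85 higher genes lay on 30 chromosomes.

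**Figure D2:**
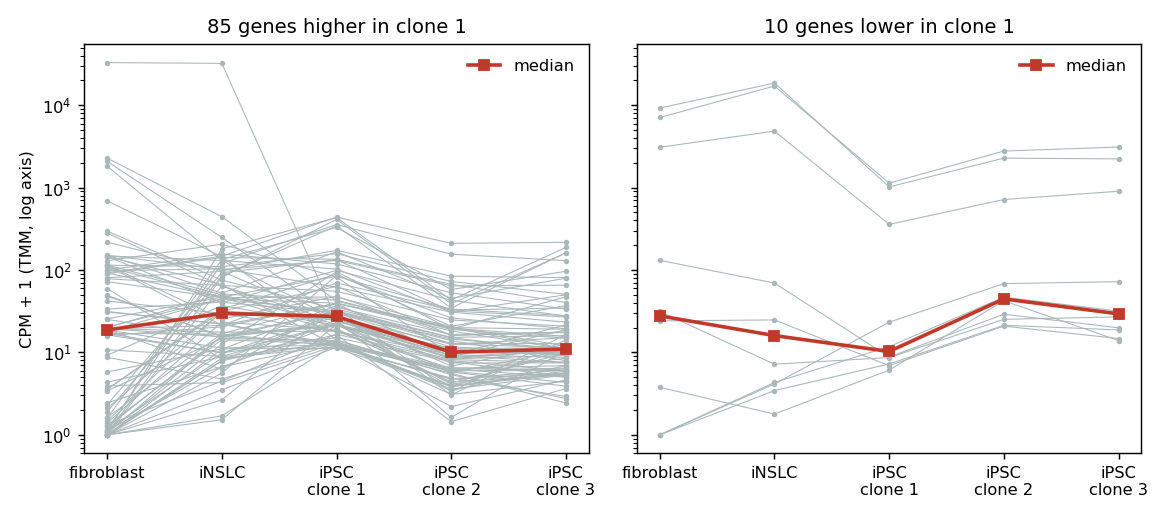
CPM + 1 on a log axis in each of the 5 libraries for the 85 genes at least 2-fold above (left) and the 10 at least 2-fold below (right) both other clones in clone 1. Each grey line is 1 gene and the red squares are medians, and fibroblast and iNSLC levels of the 85 genes range from near the floor to above every clone.

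Read over all 85 genes, more were higher in iNSLCs than in fibroblasts, but clone 1 did not stand apart in this. Of them, 37 (43.5%) were at least 2-fold higher in iNSLCs, 20 (23.5%) were at least 2-fold higher in fibroblasts and 28 were neither. Among all 9708 tested genes with at least 10 CPM in a clone the shares were 15% and 16.8%. The genes above both others in clone 2 had 47.3% and 22.3%, and those below both in clone 2 had 44.3% and 23.9%. The share of iNSLC-high genes was thus similar for clone 2 above and below its sisters and for clone 1 above. For clone 3 the shares were 71.4% of 21 genes above and 12.4% of 429 genes below. Of the 10 genes below both in clone 1, 5 were higher in iNSLCs and 2 in fibroblasts. The share in clone 1 turned on which sister it was set against. At 4-fold, 21.3% of 61 genes above clone 3 alone were iNSLC-high, and 64.9% of 114 genes above clone 2 alone.

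Nearness to the earlier stages was counted for clone 1 only, so it gives no comparison with clones 2 and 3. The distances in this measure share clones 2 and 3 with the choice of the genes, so it is a description only. The clone 1 level was nearer than the mean of the other clones to both earlier stages at 33 of the 85 genes, nearer to the iNSLCs alone at 16, nearer to the fibroblasts alone at 7, and further from both at 29. In all 57.6% were nearer to the iNSLCs and 47.1% nearer to the fibroblasts, and over all 17479 genes tested the shares were 55.1% and 56.3%. Clone 1 lay above both earlier stages at 39 of the 85 genes, below both at 22 and between them at 24. Over all 17479 genes tested these counts were 6847, 5950 and 4682. By nearness they were 7308 to both stages, 2320 to iNSLCs alone, 2528 to fibroblasts alone and 5323 further from both. All genes tested include genes under 10 CPM in every clone.

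**Figure D3:**
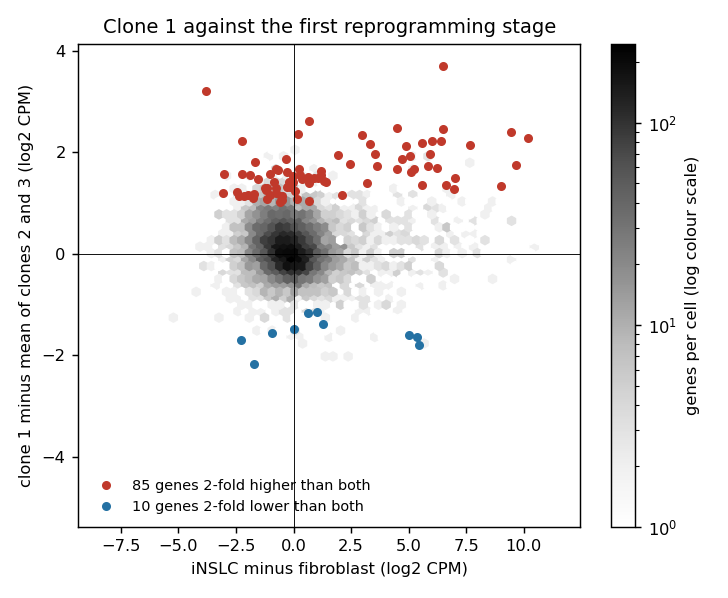
Log2 difference of clone 1 from the mean of clones 2 and 3 (vertical axis) against the log2 difference of iNSLCs from fibroblasts (horizontal axis), with grey cells shaded by the number of tested genes with at least 10 CPM in a clone. The 85 genes above (red) and 10 below (blue) both other clones lie on both sides of 0 on the horizontal axis, and over the 9708 genes Pearson's r is -0.017.

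Across genes the difference of clone 1 from its sisters hardly followed the difference between the earlier stages. Over the 9708 genes Pearson's r was -0.017 and Spearman's rho was -0.095, where genes are not independent replicates, and r was -0.022 for clone 2 and 0.040 for clone 3. As a whole, though, clone 1 was the clone nearest to both earlier stages. Its Spearman correlation with the iNSLCs over the 17479 genes was 0.861, against 0.839 for clone 2 and 0.837 for clone 3, and with the fibroblasts it was 0.797, against 0.777 and 0.773. Over the 11096 genes with at least 10 CPM in any library, the median absolute log2 difference from the iNSLCs was 0.720 for clone 1, 0.771 for clone 2 and 0.846 for clone 3. From the fibroblasts it was 0.952, 1.02 and 1.11. Clone 1 was also the clone nearest to its sisters, so its nearness was not particular to the earlier stages. Spearman's rho was 0.960 for clones 1 and 2, 0.976 for clones 1 and 3 and 0.949 for clones 2 and 3. The median absolute log2 difference was 0.298, 0.389 and 0.461 in the same order. These values come from 1 library each, and their difference between clones was not tested.

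Genes with a higher level in colonies than in fibroblasts were nearly level between clone 1 and clone 3. A total of 814 tested genes had at least 10 CPM in iNSLCs and 4-fold more than in fibroblasts, and they are called gained in colonies. Clone 1 exceeded the mean of the other clones by a median of 0.12 on the log2 scale over them, and all genes tested had a median of 0.02. The margin was 0.12 against clone 2 and 0.03 against clone 3. Clone 1 was the highest of the clones at 271 of these genes (33.3%) and the lowest at 219 (26.9%), where among all genes tested it was highest at 30.9% and lowest at 28.7%. Of the 814 genes, clone 2 was highest at 298 (36.6%) and lowest at 348 (42.8%), and clone 3 at 238 (29.2%) and 245 (30.1%). Their median level was 16.2 CPM in clone 1, 13.6 in clone 2, 15.0 in clone 3, 29.8 in iNSLCs and 1.29 in fibroblasts. In bulk RNA such as this, fewer cells of a type and less RNA per cell cannot be told apart.

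Genes that peaked at the colony stage were lower in clone 1 than in clone 2. This set held 287 genes whose iNSLC level was 4-fold or more over both the fibroblasts and the mean of the clones, and it was defined after the data were seen. Its median difference in clone 1 was -0.26, with -0.55 against clone 2 and -0.05 against clone 3. Clone 1 was the lowest clone at 123 of the genes (42.9%) and the highest at 65 (22.6%), and clone 2 was highest at 155 (54.0%). The median level was 1.52 CPM in clone 1, 2.54 in clone 2 and 1.67 in clone 3, against 33.3 in iNSLCs and 1.17 in fibroblasts. With a list fold of 2 in place of 4, which takes in 575 genes, the median was 0.03. The rule of this list uses the mean of the clones, clone 1 included, so genes that a clone had kept at a high level were less likely to enter it. These values therefore do not settle whether clone 1 held a residual colony program, and it is called here only by its label.

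Genes silenced at the iPSC stage had a higher median in clone 1, and genes gained at that stage a lower one. The 589 genes silenced at the iPSC stage, at least 10 CPM in both earlier stages and at least 4-fold lower in the mean of the clones, had a median difference of 0.24, with clone 1 highest at 217 (36.8%) and lowest at 116 (19.7%). Clone 2 was highest at 219 of these genes (37.2%) and lowest at 239 (40.6%), and clone 3 at 151 (25.6%) and 231 (39.2%). Summed over the genes, the level was 10398 CPM in clone 1, 10145 in clone 2 and 10913 in clone 3. Their median level was 4.42 CPM in clone 1, 3.52 in clone 2 and 3.43 in clone 3. In iNSLCs it was 53.2 and in fibroblasts 92.9. The 305 genes gained at the iPSC stage, at least 4-fold above both earlier stages, had a median of -0.21, with clone 1 highest at 54 (17.7%) and lowest at 119 (39.0%). The size of this value depended on the list rule, with -0.0570 over 1210 genes at a list fold of 2, -0.91 over 59 genes at 16 and -0.0854 over 108 genes with a minimum of 50 CPM. The median level of the 305 genes was 26.8 CPM in clone 1, 38.5 in clone 2 and 29.6 in clone 3. Clone 2 was highest at 145 of them (47.5%) and lowest at 98 (32.1%). Clone 3 was highest at 106 (34.8%) and lowest at 88 (28.9%). At 72 of them clone 2 lay at least 2-fold above both other clones, against 3 for clone 1 and 4 for clone 3. The median difference of clone 1 was -0.20 against clone 2 and -0.14 against clone 3. In both lists the median of clone 1 was shifted toward the earlier stages, and the levels in all 3 clones were far from those stages. The clones enter the choice of these lists as a mean, so the levels describe and do not test. By this rule a gene high in clone 2 alone can enter the list gained at the iPSC stage, which lowers clone 1 against its sisters.

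Genes with a lower level in colonies had a smaller median at a list fold of 4. Those held by both earlier stages, to which the list fold does not apply, also had a smaller one. The 582 genes lost in colonies, at least 4-fold higher in fibroblasts than in iNSLCs, had a median of 0.09 in clone 1. The 6221 genes shared by both stages, with at least 10 CPM in both and less than 2-fold apart, had 0.06. The 427 genes highest in fibroblasts, a list also defined after the data were seen, had 0.11, with 4.98 CPM in clone 1, 5.12 in clone 2 and 4.46 in clone 3 against 117 in fibroblasts. At a list fold of 2 the genes lost in colonies had 0.19 and those highest in fibroblasts 0.23, with 50 CPM they had 0.18 and 0.26, and at a list fold of 16 they had -0.0594 and 0.

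Of the 85 genes above both other clones, 19 (22.4%) were among those gained in colonies, against 5.63% of the 9708 tested genes with at least 10 CPM in a clone. The shared list held 24 (28.2%, against 60.7%), the lost list 8 (9.41%, against 3.32%) and the silenced list 9 (10.6%, against 2.19%). Those gained at the iPSC stage held 3 (3.53%, against 3.14%), those highest in fibroblasts 8 (9.41%, against 1.92%) and those highest in colonies 1 (1.18%, against 0.659%). In no list were 30 (35.3%, against 27.3%). Genes shared by both stages were thus fewer, and genes that differed between the stages more, than among the 9708. This was not particular to clone 1. Of the 385 genes above both others in clone 2, 49 were gained in colonies, 62 shared, 32 lost and 25 silenced. For the 21 genes above both others in clone 3 these counts were 4, 3, 1 and 0. The fold rule picks genes that vary between clones, and what sets these shares was not tested. Lists overlap in part. The list highest in colonies lies wholly within those gained in colonies, and the list highest in fibroblasts wholly within those lost. The 8 lost genes and the 8 highest in fibroblasts are therefore the same genes.

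**Figure D4:**
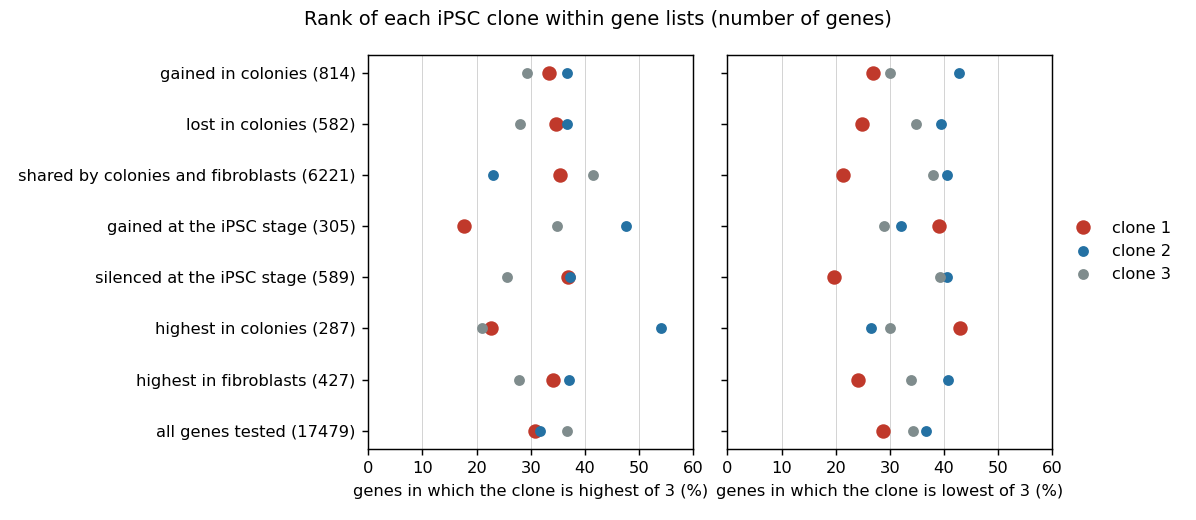
Percent of the genes of each list, and of all genes tested, at which each clone was the highest (left) or the lowest (right) of the 3 clones, with the number of genes in brackets. Clone 1 (red) is lowest at 42.9% of the genes highest in colonies and at 39.0% of those gained at the iPSC stage, and lowest at 19.7% of those silenced at the iPSC stage.

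The difference of clone 1 from its sisters went with the length of the gene on the genome. Among genes with at least 10 CPM in a clone, the median log2 difference of clone 1 was -0.12 over 2541 genes spanning under 10 kb, 0.02 over 2817 of 10 to 30 kb, 0.21 over 2900 of 30 to 100 kb and 0.31 over 1434 above 100 kb. Clone 3 had the opposite order, 0.28, 0.08, -0.22 and -0.29, and clone 2 lay between -0.15 and 0.02. Each clone is set against the mean of the other clones, so the 3 values of a gene sum to 0 and are not independent. Against clone 2 alone clone 1 had medians of 0.04 to 0.20, and against clone 3 alone -0.30 to 0.38. Of the 85 genes above both other clones, 41 spanned over 100 kb (2.86% of that class) and 11 under 10 kb. None of the 10 lower genes spanned over 100 kb, and 6 spanned under 10 kb. The median span was 85.4 kb for the 85 genes, 4.81 kb for the 10 lower genes and 25.1 kb for all 9708. Genes 2-fold outside in clone 2 had 32.0 and 34.4 kb, and those in clone 3 had 7.19 kb above and 50.8 kb below.

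The lists differ in span as well. Genes gained in colonies had a median span of 34.0 kb, the silenced genes 33.0 kb, those gained at the iPSC stage 18.4 kb and those highest in colonies 15.9 kb, and all genes tested 18.3 kb. With the median of the span class subtracted from each gene, a setting added after the data were seen, clone 1 stood at 0.02 for genes gained in colonies, 0.13 for the silenced, -0.25 for those gained at the iPSC stage and -0.35 for those highest in colonies, and at -0.03 for all genes. Over genes with at least 10 CPM in a clone, those gained in colonies went from 0.20 to 0.0711, and all such genes from 0.0678 to 0. Genes gained in colonies thus stood closer to all genes after the subtraction and still above them. What sets the dependence on span was not tested.

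Along the genome, the median difference of clone 1 over the tested genes of each of the 39 nuclear chromosomes ran from -0.13 on chromosome 20 to 0.19 on chromosome 14, with an SD over chromosomes of 0.083, and 30 were above 0. The value was lower on chromosomes with more gene models per Mb, with Pearson's r of -0.774 and Spearman's rho of -0.751 over the 39 chromosomes. For clone 2 Pearson's r was -0.239 and for clone 3 it was 0.742. These share their libraries and gene counts, and are given as a description. The 24 tested models of the mitochondrial genome had a median of -0.50 in clone 1, with -0.74 against clone 2 and -0.29 against clone 3, and clone 2 stood at 0.70.

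**Figure D5:**
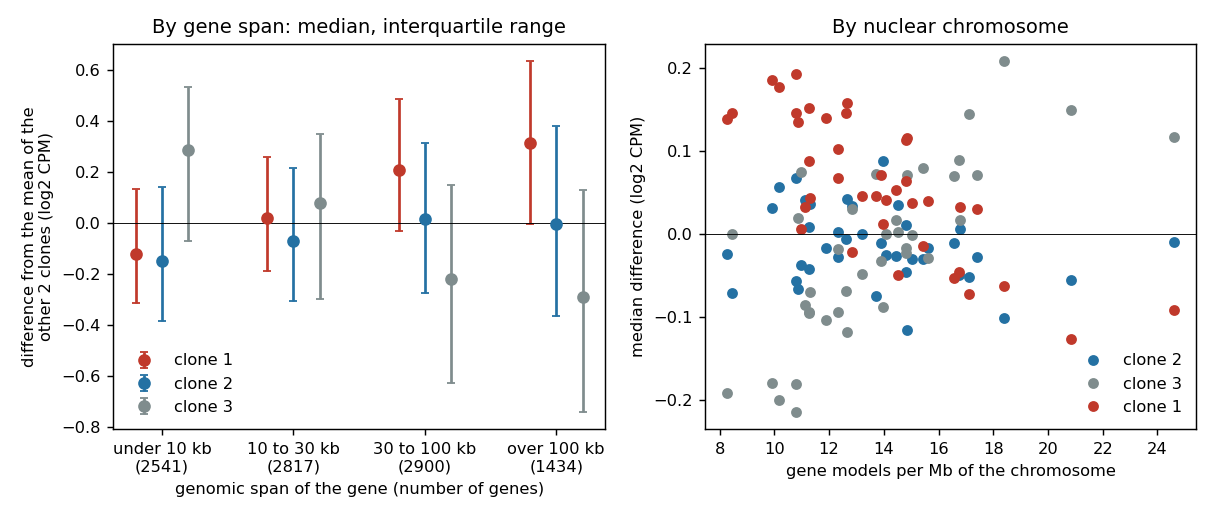
Left, median and interquartile range over genes of the log2 difference of each clone from the mean of the other clones, by the genomic span of the gene. Right, the median difference of each clone over the genes of each of the 39 nuclear chromosomes against gene models per Mb. Clone 1 (red) runs from -0.12 for spans under 10 kb to 0.31 above 100 kb, and clone 3 (grey) runs the other way.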

How the data were processed

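For each gene model the authors deposited raw read counts (whole numbers with no normalization). The processing notes of the submitters list featureCounts 1.5.2, STAR 2.5.3a, Trim Galore 0.4.0 and the genome CanFam3.1. The sources used here give no strand, multi-mapping or read layout setting. Even numbers made up 59.6% to 61.6% of counts from 1 to 10 in the iPSC libraries, 74.0% in the iNSLC and 64.0% in the fibroblast library, so mates of a pair may have been counted separately, and halved counts were tried. No row named anything but a gene model, and 0 columns of other samples were found.

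Clone 1 was compared with clones 2 and 3 in edgeR 4.0.16 (R 4.3.3) with the quasi-likelihood test, TMM, filterByExpr and Benjamini-Hochberg adjustment, in 1 fit of 4 groups to all 5 libraries. The 3 clones came from 1 dog, so p-values measure spread between clones and not between animals. DESeq2 1.42.0 and limma 3.58.1 (voom) were alternatives. Each SE given with an edgeR difference was derived from the test and is not an output of edgeR. It was the absolute log2 difference divided by the square root of the quasi-likelihood F statistic. The fit was tested on simulated data. Genes outside both other clones had at least 10 CPM on the higher side, with libraries under 3 counts set to 3. Log2 CPM used a prior count of 2. Lists came from the iNSLC and fibroblast levels (4-fold, 10 CPM), and 4 of the 7 lists also from the mean of the clones. The shared list took genes less than 2-fold apart in place of the 4-fold rule. The rule for named genes was the 2 largest gaps of log2(CPM + 1) between clone 1 and the nearer clone per direction among genes 4-fold outside both clones (2-fold where 0 were), then the first 2 nearer to each stage, and the models named beyond that were chosen after their values were seen. Members and lists were chosen with earlier results of these data known. The marker lists could not be applied, as no ID had a symbol.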

Additional observations from a re-analysis of the deposited data

How the results depend on the processing

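Call counts between clone 1 and the other clones stayed at 0 under RLE or upper-quartile scaling, library sizes, halved counts, 3 clones only, mitochondrial models left out and the adjusted p under 0.01, and in DESeq2 and limma-voom. Without a filter the count was 62 (12 higher, 50 lower), from a fit whose prior degrees of freedom were infinite. The counts of genes outside both clones (3 above, 0 below) were 85 and 10 at a fold of 2, 0 above at a fold of 8, 11 and 11 with a minimum of 1 CPM and 1 above with 50 CPM. Leaving out clone 2 or 3 gave 61 to 114 above and 1 to 204 below, and 21.3% to 64.9% of the genes above were iNSLC-high.

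Median differences by list changed with the list rule. Genes lost in colonies (0.09) gave 0.0105 with RLE, 0.19 at a list fold of 2, -0.0594 at 16 and 0.18 with 50 CPM. Genes gained at the iPSC stage (-0.21) gave -0.0570 at 2, -0.91 at 16 and -0.0854 with 50 CPM. Genes highest in colonies gave 0.0306 at 2, highest in fibroblasts 0.23 at 2, 0 at 16 and 0.26 with 50 CPM, and genes gained in colonies 0.19 at 16. With the span class subtracted, chosen after seeing the data, genes gained in colonies, lost, shared and highest in fibroblasts stood at 0.0211, 0.00896, -0.00475 and 0.0295. Leaving out a clone gave 0.0301 to 0.12 for gained, 0.0148 to 0.11 for shared, -0.55 to -0.0457 for highest in colonies and -0.20 to -0.0217 for chromosome 20. The cause was not tested.

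No paired analysis was possible, as each clone was 1 library and no label pairs clone 1 with clone 2 or 3. The other recomputed list medians moved by less than the SD over the clones.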
